A study of Parasteatoda tepidariorum with 10 samples.

Results

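The data were 10 lists of ATAC-seq peaks made from the spider *Parasteatoda tepidariorum* (Osaka isolate, entire embryos), a method in which the Tn5 transposase cuts open chromatin and marks the cut sites for sequencing. Wild-type embryos were taken at stage 1 (9 h after egg laying), stage 2 (12 h) and stage 3 (18 h), and stage-3 embryos (18 h) were also taken after parental RNA interference (pRNAi) against *fuchi* or *Pt-hh*, with 2 libraries in each of these 5 groups. The source labels name line 39 for replicate 1 of each wild-type stage and for *Pt-hh* pRNAi replicate 2, and line 40 for replicate 2 of wild-type stages 2 and 3, both *fuchi* pRNAi libraries and *Pt-hh* pRNAi replicate 1, with no line number for stage 1 replicate 2. For pRNAi, mated females received about 2 µl of double-stranded RNA at 2 µg/µl by injection, 3 times for *fuchi* and 4 times for *Pt-hh*, and egg sacs laid 13 to 24 days after the first injection were used, whereas the wild-type embryos were untreated and no group injected with a control RNA was analysed here. Every library pooled embryos, 200 at stages 1 and 2 and 40 at stage 3, so that a peak stands for a mixture of cell types and the loss of open chromatin cannot be told apart from a smaller share of the cells that carry it.

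Described here are the early regions without a stage-3 peak, that is, stretches of the genome that were called as open in both replicates of stage 1 or of stage 2 and in neither wild-type replicate of stage 3. They were chosen by measured values: each of the 6 wild-type lists was cut to its 12494 peaks of highest signal, the area over which the peak caller adds up significance, and peaks that overlapped by at least 1 bp were merged. This gave 41314 regions, of which 5296 (12.8%) had a peak in both stage-1 or both stage-2 lists and are called early regions below. Of these, 1269 (24.0% of the early regions and 3.07% of all regions) had no stage-3 peak, 985 (18.6%) had a peak in 1 stage-3 list, and 3042 (57.4%) had one in both. Among all 41314 regions, 60% had no peak in either stage-3 list. These shares follow from the rule and carry no test.

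In early embryos, chromatin opens and closes as the zygotic genome is switched on, and regulatory regions that are open before cells take their fates may close later or stay open in some lineages. GATA proteins are zinc-finger transcription factors, some of which can bind closed chromatin and open it. *fuchi* encodes a GATA-like factor, and *Pt-hh* encodes the spider Hedgehog, a secreted signal that patterns the embryo. In *P. tepidariorum*, the germ disc, a sheet of cells from which the body axis arises, begins to form by stage 3.

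The lists differed in ways that bear on every value below. They held 23985 to 137892 peaks at stages 1 and 2 and 10616 to 23045 peaks at stage 3, and the lowest signal kept in a wild-type list ranged from 200.01 in stage 3 replicate 2 to 529.63 in stage 1 replicate 2. At stages 1 and 2, 29.1% to 70.1% of all peaks in a list shared 1 summit p-value, against 2.12% to 5.34% at stage 3. Stage, the number of embryos per library and this coarse grain of the early p-values changed together and cannot be told apart. No depth was given for any library. The study itself looked for regions that differed in accessibility between wild-type stages 1 to 3 and reported that this gave no clear results.

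Most of the early regions without a stage-3 peak had a peak in both replicates at 1 stage only. Peaks in both stage-1 lists but not in both stage-2 lists were found in 580 of the 1269, peaks in both stage-2 lists but not in both stage-1 lists in 612, and peaks in all 4 early lists in 77. In all, 713 had a peak in exactly 2 early lists, 479 in 3 and 77 in 4. The 479 with 3 thus also had a peak in 1 list of the other stage. The share of early regions that had no stage-3 peak was 43.2% of 1342 regions found in both stage-1 lists but not in both stage-2 lists. It was 24.8% of 2470 found in both stage-2 lists but not in both stage-1 lists, and 5.19% of 1484 found in all 4 early lists. The full early lists, which also hold weaker peaks, gave all 4 early libraries a peak in 333 of the 1269 regions (26.2%).

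They were weaker than the early regions that had stage-3 peaks, though not weak for their lists. Strength is given as the percentile of a peak by signal within its cut list, where 100 is the strongest. The median percentile of the regions without a stage-3 peak was 52.0 in stage 1 replicate 1, 58.6 in stage 1 replicate 2, 46.2 in stage 2 replicate 1 and 52.2 in stage 2 replicate 2, close to the middle of each list. For the early regions with a peak in both stage-3 lists the same medians were 84.6, 84.7, 81.5 and 80.9. The 4 libraries gave the same order of the groups, and the interquartile ranges overlapped in each. Among the regions without a stage-3 peak, 4.22% to 11.0% lay at or above percentile 90 of a list, against 33.6% to 40.1% of those with both stage-3 peaks. As the rule ranked the peaks by the same signal, these strengths are a description.

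**Figure D1:**
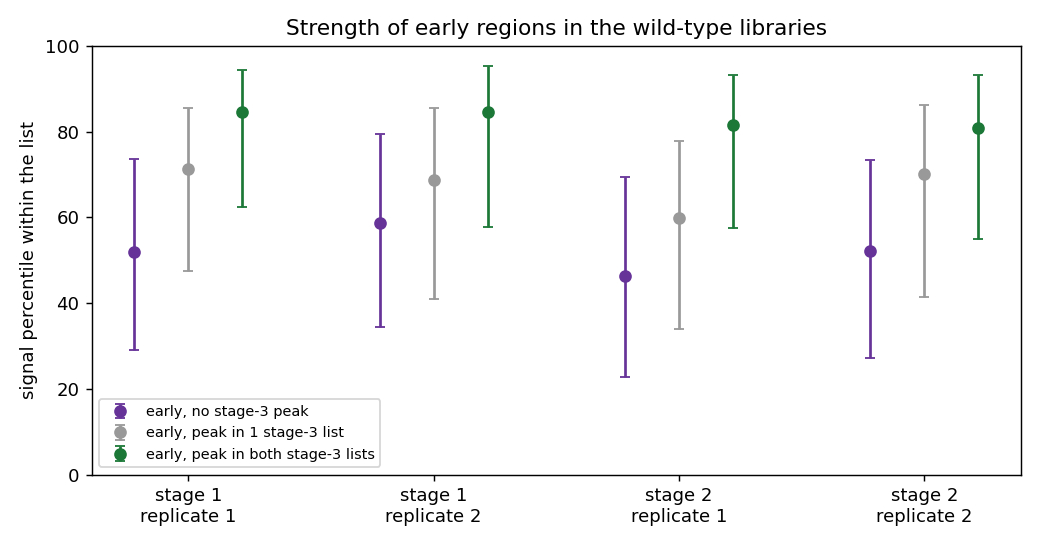
Signal percentile within the cut list of each of the 4 early wild-type libraries (y axis, 100 is the strongest peak), for early regions with no stage-3 peak, with a peak in 1 stage-3 list and with a peak in both; points are medians over regions and bars span the quartiles. The medians of the regions without a stage-3 peak lie between 46.2 and 58.6 and those of the regions with both stage-3 peaks between 80.9 and 84.7.

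The regions without a stage-3 peak had a median width of 759 bp (quartiles 560 and 1025 bp, range 140 to 3182 bp), against 871 bp for the early regions with both stage-3 peaks and 580 bp for all 41314 regions. A merged region is widened by each list that adds a peak, so the widths of single peaks were compared as well. They were shorter than in the regions with both stage-3 peaks in each of the 4 early libraries: in stage 1 replicate 1 the median was 580 bp for peaks in regions without a stage-3 peak and 647 bp for those in regions with both, and in stage 2 replicate 2 it was 510 and 570 bp. In stage 1 replicate 2 the medians were 624 and 645 bp, and in stage 2 replicate 1 they were 437 and 501.5 bp. As the signal is an area, peak width enters the value that the rule ranked by, so these widths are a description. Over all regions the medians were 577, 623, 449.5 and 495 bp, and in the early regions with 1 stage-3 list they were 564, 576, 428 and 526.5 bp (stage 1 replicates 1 and 2, then stage 2), so that short peaks were not particular to the regions without a stage-3 peak. The summits, where a peak is highest, lay further apart between replicates in the regions without a stage-3 peak. The median distance between the summits of the 2 replicates was 140 bp at stage 1 (657 regions) and 99 bp at stage 2 (689 regions), against 82 bp and 70 bp in the early regions with both stage-3 peaks and 92.5 bp and 76 bp in those with 1. The share of peaks whose summit had the most frequent p-value of its list was 17.7% and 14.5% in the stage-1 replicates and 5.27% and 20.7% in the stage-2 replicates. This was close to the share over all regions, at 17.65%, 15.9%, 4.81% and 20.75%, and above that in the regions with both stage-3 peaks, at 6.03%, 4.71%, 1.08% and 12.2%. The part of this grain in the missing stage-3 peaks was not tested.

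The strongest regions with a peak in all 4 early lists show what the group holds. The highest mean percentile was reached on scaffold NW_018373636.1 from 278825 to 279489 (assembly Ptep_2.0, as all positions here), with percentiles of 89.5 and 97.5 in the stage-1 replicates and 96.7 and 87.4 in the stage-2 replicates (mean 92.8 ± 5.08, SD, n = 4 libraries). Neither full wild-type stage-3 list had a peak there, and the *fuchi* pRNAi list of replicate 1 had one at percentile 43.9, whereas *Pt-hh* pRNAi replicate 1 had one only at rank 15590 of its full list. This region was thus among the most open of 4 early libraries and found in 1 of the 4 pRNAi lists of equal length. Percentiles and ranks of pRNAi peaks are places within a list and do not compare signal between libraries. At rank 10616, the last kept, the signal was 200 and 246 in the *fuchi* pRNAi lists and 410 and 360 in the *Pt-hh* pRNAi lists.

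A second region, on NW_018371426.1 from 434648 to 436422, had percentiles of 98.2 and 89.4 at stage 1 and 85.8 and 96.6 at stage 2 (mean 92.5 ± 5.88, SD, n = 4). Its peaks ranked high in both *fuchi* pRNAi lists, at percentiles 87.6 and 71.9, and low in *Pt-hh* pRNAi replicate 1, at percentile 14.5. The other *Pt-hh* library and both wild-type stage-3 libraries had no peak there. The region on NW_018374740.1 from 123 to 762, at the very start of its scaffold, had early percentiles of 95.3, 96.1, 78.3 and 88.3 and *fuchi* pRNAi percentiles of 75.1 and 51.8, with 44.5 in *Pt-hh* pRNAi replicate 1. In wild-type stage 3 replicate 1 its peak lay at rank 15948 of 19812, below the kept part of the list. The region on NW_018368786.1 from 178009 to 178982 (mean percentile 89.4 ± 9.68, SD, n = 4) had a faint *fuchi* pRNAi peak, at percentile 5.03 in replicate 1, and *Pt-hh* pRNAi peaks only at ranks 13170 and 15825 of the full lists. Its wild-type stage 3 replicate 1 peak lay at rank 13970. The region on NW_018375159.1 from 352805 to 354008 (mean 86.5 ± 11.2, SD, n = 4) had a peak in all 4 pRNAi lists, and there the replicates of a group disagreed: the percentiles were 96.9 and 14.2 after *fuchi* pRNAi and 83.5 and 19.3 after *Pt-hh* pRNAi.

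Some strong early regions had no peak in any of the 6 full stage-3 lists. The highest of these in all 4 early lists was on NW_018378812.1 from 435891 to 436575, with percentiles of 85.3 and 92.5 at stage 1 and 94.8 and 75.7 at stage 2. It was followed by NW_018370942.1 from 8275608 to 8276640 (81.2, 89.3, 78.1 and 90.03), by NW_018371051.1 from 1 to 361 (82.4, 81.4, 72.8 and 85.4) and by NW_018379081.1 from 245500 to 246823 (84.9, 94.99, 51.3 and 85.2). Of the 77 regions with a peak in all 4 early lists, 22 (28.6%) had no peak in any full stage-3 list, and of all 1269 regions 596 (47.0%) had none. Among all regions without a peak in the cut stage-3 lists this share was 79%.

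Regions with peaks in the cut lists of 1 early stage only reached similar percentiles at the top, but their means rest on 2 libraries in place of 4. They were also picked from more regions (713 against 77). Their median mean percentile was lower, at 44.9 against 56.9 for the 77 regions in all 4 early lists. Among the regions of stage 1, the highest lay on NW_018383575.1 from 1800593 to 1802327, with percentiles of 96.5 and 97.9. After pRNAi it had a peak at percentile 43.0 in *Pt-hh* replicate 1 and one at 1.47 in *fuchi* replicate 2. The full stage-2 lists had weaker peaks there, at rank 34791 in replicate 1 and at rank 12649 in replicate 2. Wild-type stage 3 replicate 1 had a peak there at rank 19075. The next, a narrow region of 419 bp on NW_018377500.1 from 3270989 to 3271407, had percentiles of 97.1 and 96.6 at stage 1, no peak in the full lists of stage 2 replicate 2 or of the wild type at stage 3, and peaks in both *fuchi* pRNAi lists at percentiles 75.8 and 90.3. Its *Pt-hh* pRNAi peaks ranked lower within their lists, at percentile 20.0 in replicate 1 and at rank 12457 of the full list in replicate 2. Stage 2 replicate 1 also had a weaker peak there, at rank 19379 of its full list. All 4 pRNAi libraries therefore had a peak where both wild-type libraries of the same age had none. On NW_018368786.1 from 197787 to 198768 the stage-1 percentiles were 92.7 and 95.9, and no other library had a peak in its full list. This region lay on the same scaffold as the one from 178009 to 178982 above.

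Among regions with peaks in the cut lists of stage 2 only, that on NW_018374226.1 from 1188851 to 1189945 ranked highest, with percentiles of 89.0 and 93.8. Stage 1 replicate 1 had a weaker peak there, at rank 18520 of its full list. Both *fuchi* pRNAi libraries had a peak there, at percentiles 73.4 and 37.5, and *Pt-hh* pRNAi replicate 1 had one only at rank 21370 of 23045. The region on NW_018370506.1 from 8137744 to 8138854 (stage-2 percentiles 90.2 and 90.5) had *fuchi* pRNAi peaks at percentiles 54.5 and 61.2 and a *Pt-hh* pRNAi peak at 74.5 in replicate 1. Weaker peaks lay there at rank 13467 in *Pt-hh* pRNAi replicate 2 and at rank 16665 in wild-type stage 3 replicate 1. In the full lists of stage 1 replicates 1 and 2 they lay at ranks 20663 and 16071. The region on NW_018381699.1 from 170259 to 170978 (90.7 and 88.7) had no peak in the full *fuchi* pRNAi lists, and its only pRNAi peak lay at rank 11410 in *Pt-hh* replicate 2, below the 10616 peaks kept. Stage 1 replicate 2 had a peak there at rank 96390 of 137892.

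The values next to the limits of the rule show how sharp it was. Just inside lay a region on NW_018371019.1 from 13502544 to 13503090, whose stage 2 replicate 2 peak had rank 12482 of the 12494 kept, and one on NW_018373717.1 from 4514676 to 4515719, whose stage 3 replicate 1 peak had rank 12510 and so fell just below the kept peaks. Just outside lay an early region on NW_018383084.1 from 1786133 to 1786529, with early percentiles of 82.4, 90.1 and 88.7, which was left out for a stage 3 replicate 2 peak at rank 12485. Another, on NW_018370404.1 from 364432 to 365198, was left out for a peak at rank 12489 in the same list.

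The full wild-type stage-3 lists were then searched for weaker peaks. Only replicate 1 could show any, since the list of replicate 2 held 12494 peaks and was used whole. In replicate 1, 242 of the 1269 regions (19.1%) had a weaker peak, against 7.19% of all regions without a peak in the cut stage-3 lists. These peaks lay at ranks 12510 to 19799 with a median of 15994, so that they were spread over the whole lower part of the list and did not gather just below the limit. The share was 16.8% for regions with peaks in 2 early lists, 21.1% for 3 and 27.3% for 4. The missing stage-3 peak was therefore, for 242 regions, a weaker peak in 1 of the 2 libraries.

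The pRNAi lists, which the rule did not use, were asked for peaks in the same regions. Each was cut to 10616 peaks, the length of the shortest. The *fuchi* pRNAi lists had a peak in 303 (23.9%, replicate 1) and 187 (14.7%, replicate 2) of the 1269 regions, and the *Pt-hh* pRNAi lists in 97 (7.64%, replicate 1) and 96 (7.57%, replicate 2). Over all 41314 regions the same lists had a peak in 22.8%, 23.2%, 23.3% and 23.7%, but these include regions with wild-type stage-3 peaks, which the rule left out of the 1269. The *fuchi* pRNAi share was near this background in replicate 1 and below it in replicate 2, and the *Pt-hh* pRNAi shares differed from it by −15.7 and −16.2 percentage points. The mean was 19.3% ± 6.46 for *fuchi* and 7.604% ± 0.0557 for *Pt-hh* (SD, n = 2 libraries each), 2.54 times as high. The groups did not overlap, and the difference of 11.7 percentage points gave p = 0.333 (exact permutation test over libraries, two-sided; adjusted p = 0.333 over 2 tests), the smallest p that 2 against 2 libraries allow. It was 7.13 points without *fuchi* pRNAi replicate 1. With 1 early library left out, so that a single list stood for its stage, it was 2.08 (without stage 1 replicate 1), 4.19 (without stage 1 replicate 2), 4.83 (without stage 2 replicate 1) and 2.92 points (without stage 2 replicate 2), and it was 17.7 without stage 3 replicate 2.

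With the full pRNAi lists the order was the opposite. The shares were then 23.9% and 21.7% after *fuchi* pRNAi and 32.5% and 28.7% after *Pt-hh* pRNAi, a difference of −7.80 percentage points (p = 0.333, exact permutation test, two-sided). The *fuchi* pRNAi lists held 10616 and 13677 peaks and the *Pt-hh* pRNAi lists 23045 and 19732, and the background over all regions rose to 22.8%, 28.1%, 39.7% and 36.8%. Relative to this background, the shares of the 4 lists were 1.04, 0.773, 0.819 and 0.779, whereas in lists of equal length they were 1.04, 0.636, 0.328 and 0.319. Thus *Pt-hh* pRNAi libraries had peaks in more of these regions in all, but among their weaker peaks, and the direction of the difference depended on the length of the lists. The signal at rank 10616 was 200 and 246 in the *fuchi* pRNAi lists and 410 and 360 in the *Pt-hh* pRNAi lists.

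**Figure D2:**
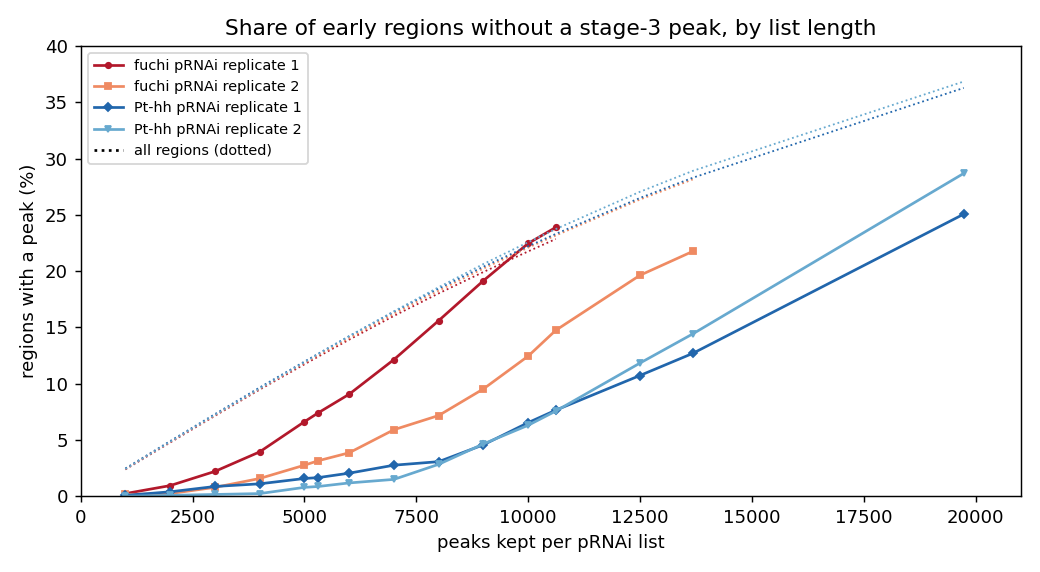
Share of the 1269 early regions without a stage-3 peak (solid lines) and of all 41314 regions (dotted lines) that had a peak in a pRNAi list, against the number of peaks kept from that list, for 2 *fuchi* and 2 *Pt-hh* pRNAi libraries. At 10616 peaks the solid lines stand at 23.9% and 14.7% for *fuchi* and 7.64% and 7.57% for *Pt-hh*, while the dotted lines lie together near 23%; the longer *Pt-hh* lists reach 25.1% and 28.7% at 19732 peaks.

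Where lists of the same length could be compared, the lines kept apart over most of the range. At 5308 peaks, 7.41% and 3.15% of the regions had a *fuchi* pRNAi peak and 1.65% and 0.867% a *Pt-hh* pRNAi peak. At 3000 peaks the second *fuchi* pRNAi library (0.788%) lay between the *Pt-hh* libraries (0.867% and 0.158%). At 2000 peaks it did so as well (0.236%, against 0.394% and 0.0788%), so that the groups overlapped at both lengths. At 13677 peaks, which 3 libraries reached, the share was 21.7% in *fuchi* pRNAi replicate 2 and 12.7% and 14.4% in the *Pt-hh* libraries. Within line 40 the difference was 11.7 percentage points, from 2 libraries against 1.

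The early regions that had stage-3 peaks in the wild type gave other values. Where both wild-type stage-3 lists had one, 91.9% and 92.8% had a *fuchi* pRNAi peak and 91.1% and 92.8% a *Pt-hh* pRNAi peak in lists of equal length. Where 1 of them had one, the shares were 66.1% and 55.5% after *fuchi* pRNAi and 36.3% and 43.8% after *Pt-hh* pRNAi. With the full lists this order turned as well, to means of 67.2% and 79.6%. Averaged over the 4 pRNAi libraries, the share in the regions without a wild-type stage-3 peak minus that in the other 4027 early regions was −68.5 percentage points, and it was negative in 4 of 4 libraries. Because the rule split the regions by their wild-type stage-3 peaks, this direction is a description and carries no test. Regions that were neither early nor in a stage-3 list had a pRNAi peak in 4.39% and 2.96% (*fuchi*) and 2.29% and 2.35% (*Pt-hh*) in lists of equal length, with means of 4.78% and 10.2% in full lists.

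**Figure D3:**
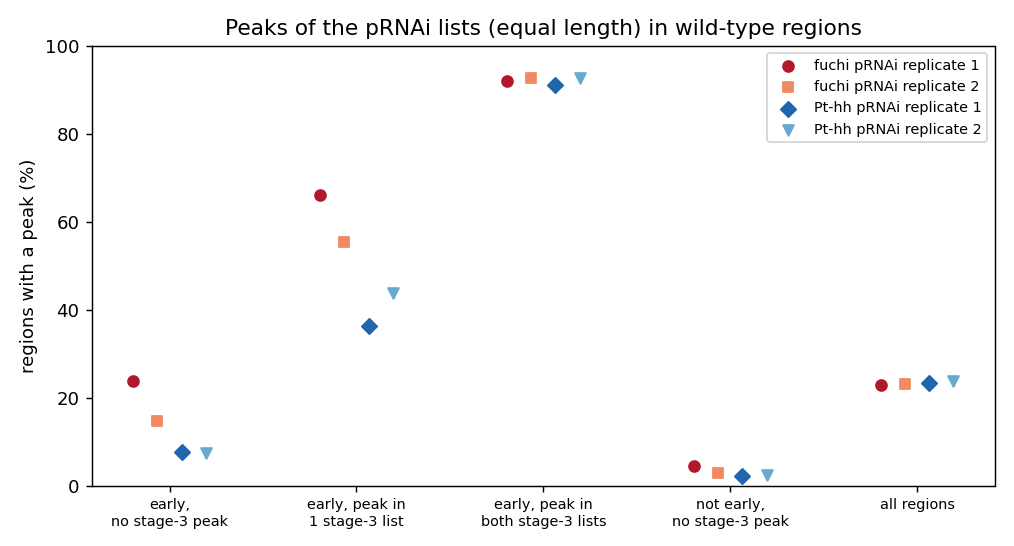
Share of regions with a peak in each pRNAi list of 10616 peaks (y axis), for early regions with no stage-3 peak, with a peak in 1 or in both wild-type stage-3 lists, for regions that were neither early nor had a stage-3 peak, and for all 41314 regions; each point is 1 library. Both *fuchi* points lie above both *Pt-hh* points in all groups but the early regions with both stage-3 peaks and all 41314 regions, and the 4 libraries lie within 91.1% to 92.8% where both wild-type stage-3 lists had a peak.

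At equal length, the *fuchi* pRNAi share was higher the more early lists had a peak, in both libraries. The share of *Pt-hh* pRNAi replicate 2 rose as well, whereas *Pt-hh* pRNAi replicate 1 had a lower share with 3 lists than with 2. In lists of equal length, *fuchi* pRNAi replicates 1 and 2 had a peak in 16.5% and 8.98% of the 713 regions with peaks in 2 early lists, in 30.3% and 20.0% of the 479 with 3, and in 51.9% and 35.1% of the 77 with 4. The *Pt-hh* pRNAi replicates had a peak in 7.71% and 5.75%, in 7.10% and 9.81%, and in 10.4% and 10.4%. For the 77 regions found in all 4 early lists the means were 43.5% ± 11.9 and 10.4% ± 0 (SD, n = 2 libraries each, 8 regions in each *Pt-hh* library). With the full lists the share rose with the number of early lists in all 4 libraries. After *fuchi* pRNAi it was 16.5% and 13.2% with 2 lists and 30.3% and 29.9% with 3. After *Pt-hh* pRNAi it was 26.2% and 22.4% with 2 lists and 39.2% and 36.3% with 3. The 77 regions with 4 had a peak in 51.9% and 50.6% after *fuchi* pRNAi (40 and 39 regions) and 49.4% and 38.96% after *Pt-hh* pRNAi (38 and 30 regions). The *fuchi* mean for the 77 regions lay above the *Pt-hh* mean with either length, by 33.1 and by 7.14 percentage points. With the full lists, however, the nearest libraries of the 2 groups had 39 and 38 regions. By strength, the *fuchi* pRNAi mean was 13.0% in the 423 weakest of the 1269 regions by mean percentile and 26.2% in the 423 strongest, and the *Pt-hh* pRNAi mean was 6.03% and 9.34%. With the full lists the order of the groups was the opposite, at 15.4% and 24.6% in the weakest regions and 30.7% and 35.5% in the strongest.

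**Figure D4:**
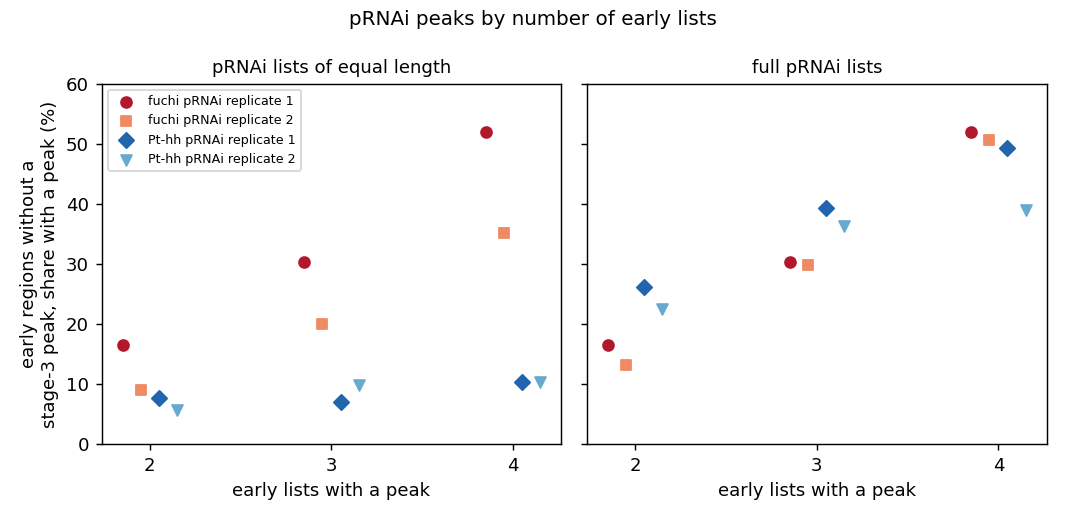
Share of early regions without a stage-3 peak that had a peak in each pRNAi list (y axis), by the number of early lists in which the region had a peak (713 regions with 2, 479 with 3 and 77 with 4), with pRNAi lists of equal length on the left and full lists on the right; each point is 1 library. On the left the *fuchi* points reach 51.9% and 35.1% and both *Pt-hh* points stay at 10.4% for 4 lists; on the right the 4 libraries lie between 38.96% and 51.9%.

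Among the combinations of the 4 pRNAi lists of equal length, 829 of the 1269 regions (65.3%, background 63.6%) had a peak in none, 57 (4.49%, background 1.53%) in both *fuchi* and neither *Pt-hh* list, 5 (0.394%, background 2.2%) in both *Pt-hh* and neither *fuchi* list, and 12 (0.946%, background 12.2%) in all 4. With the full lists, 19 regions (1.497%, background 0.249%) had both *fuchi* peaks only and 49 (3.86%, background 6.49%) both *Pt-hh* peaks only. The order of the 2 counts turned with the list length, while the share for *fuchi* alone stood above its background with either length. The share for *Pt-hh* alone stood below its background with either length. In both comparisons the background holds regions with wild-type stage-3 peaks, which the rule left out of the 1269. A share above or below it can thus follow from the rule and carries no test. These combinations were not counted over regions without a stage-3 peak alone.

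Among the 57 regions, the strongest were the ones on NW_018374226.1 from 1188851 to 1189945, described above, and on NW_018381107.1 from 228365 to 229067. The latter had percentiles of 90.4 and 91.5 at stage 1 and of 36.6 and 13.6 in the *fuchi* pRNAi replicates, and the *Pt-hh* pRNAi and wild-type stage-3 libraries had no peak there in their full lists. The full lists of stage 2 replicates 1 and 2 had weaker peaks there, at ranks 41774 and 16225. The next regions were on NW_018375464.1 from 137328 to 139008 (*fuchi* pRNAi percentiles 76.1 and 5.40) and on NW_018371281.1 from 6908073 to 6908607 (56.3 and 9.83), and both *Pt-hh* pRNAi libraries had peaks in each of them below rank 10616. Of the 5 regions with *Pt-hh* pRNAi peaks only, the strongest in the early lists lay on NW_018372505.1 from 5722828 to 5723615, with stage-2 percentiles of 68.1 and 79.1 and *Pt-hh* pRNAi percentiles of 9.21 and 0.419. The strongest *Pt-hh* pRNAi peaks among the named ones were on NW_018379466.1 from 2293659 to 2294980 (percentiles 85.7 and 46.7), a region of stage 1 in which no full *fuchi* pRNAi or wild-type stage-3 list had a peak. Of the 12 regions with peaks in all 4 pRNAi lists, the strongest was that on NW_018375159.1 given above. It was followed by NW_018382156.1 from 5202208 to 5203242, by NW_018379239.1 from 604736 to 605984 and by NW_018370506.1 from 8400808 to 8401293. Each of these 4 regions also had a weaker peak in wild-type stage 3 replicate 1, at ranks 13198, 13059, 19429 and 14860.

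The *fuchi* pRNAi lists also held more peaks in total outside the wild-type stage-3 regions. Of 10616 peaks, 2279 (21.5%) and 1702 (16.0%) lay outside after *fuchi* pRNAi and 1536 (14.5%) and 1363 (12.8%) after *Pt-hh* pRNAi. The early regions without a stage-3 peak took 311 (13.6%) and 188 (11.0%) of these outside peaks in the *fuchi* libraries and 95 (6.18%) and 95 (6.97%) in the *Pt-hh* libraries. Other wild-type regions without a stage-3 peak took 1021 and 655 in the *fuchi* libraries and 500 and 529 in the *Pt-hh* libraries. Peaks outside any wild-type region numbered 947 and 859 after *fuchi* pRNAi and 941 and 739 after *Pt-hh* pRNAi. For these last peaks the groups overlapped. Where they were present, the pRNAi peaks in the early regions without a stage-3 peak were weak for their lists. Their median percentiles were 34.7 and 23.3 after *fuchi* pRNAi and 20.6 and 19.1 after *Pt-hh* pRNAi. The part of the lower signal limit of the *fuchi* pRNAi lists in these counts was not tested.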

How the data were processed

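ATAC-seq peak lists of 10 libraries were analysed. Per the study's methods and the submitters' processing notes, the authors trimmed reads with Trim Galore, aligned them to Ptep_2.0 with Bowtie2 2.2.5, removed alignments with a mapping quality under 30 and PCR duplicates (Picard), and called peaks with Genrich 0.6 in ATAC-seq mode, with 1 list deposited per library; the filters are stated for stage 3. The signal column, as deposited, holds the caller's area of significance (at least 200.0 in every list), the deposited −log10 p-value belongs to the summit, and a further deposited column gives the distance to the summit; none is scaled between libraries. No read totals were used, so the depth is unknown.

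Peaks were ranked by signal, cut to equal lengths (12494 for wild-type lists, 10616 for pRNAi lists), and merged (Python 3.11.15, pandas 2.3.3). Shares were compared over libraries by exact permutation tests (2 tests, Benjamini-Hochberg adjustment; the second, against other early regions, is given as a description since the rule fixed its direction). The study calls its stage-3 replicates biological; at stages 1 and 2 the source entries differ between replicates (lines 39 and 40 at stage 2), and p-values measure only the spread between these libraries. Named regions were those with the highest mean percentile over the early libraries within each kind: 6 with peaks in all 4 early lists and 4 in each other kind, and those next to the limits of the rule, of which a few are left out of the text. The members and lists were chosen with earlier results of these data known. The counting was tested on simulated data. Alternatives were other list lengths, ranking by summit p-value, sharing at least 50% of the shorter peak's length, summit windows of 200 bp, each library left out in turn, a replicate block and, added after seeing the data, pRNAi libraries of line 40 only and pRNAi lists of 19732 peaks. No genome sequence or gene annotation of Ptep_2.0 was used here, so the planned counts of genes and motifs were not made.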

Additional observations from a re-analysis of the deposited data

How the results depend on the processing

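The count of early regions without a stage-3 peak (1269) was 692 with 1/2 of the list length and 7537 with all deposited peaks, where they made up 46.5% of the early regions in place of 24.0%. With 1/2 of the length, 45.8% had a weaker peak in wild-type stage 3 replicate 1 in place of 19.1%, and ranking by summit p-value gave 16.2%. The share with a *Pt-hh* pRNAi peak (7.604%) was 4.55% with 1/2 of the length, 12.6% with all deposited peaks, 9.24% when ranked by p-value, 9.77% with windows of 200 bp at the summits and 30.6% with the full pRNAi lists, and the *fuchi* pRNAi share (19.3%) was 7.86% with all deposited peaks. The *fuchi* minus *Pt-hh* difference (11.7 points) turned to −4.76 with all deposited peaks, −7.80 with the full pRNAi lists and −4.06 with pRNAi lists of up to 19732 peaks; the exact permutation p was 0.333 in each. Weaker stage-3 peaks have no value with all deposited peaks or without stage 3 replicate 1.

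Leaving out 1 library at a time gave 1641 (without stage 3 replicate 1) to 9581 regions (without stage 1 replicate 1), 31.0% to 65.6% of the early regions, weaker stage-3 peaks in 5.28% to 30.3%, *fuchi* pRNAi peaks in 4.01% to 34.1%, *Pt-hh* pRNAi peaks in 1.93% to 17.1% and a difference of 2.08 to 17.7 points. A single list standing for a stage adds regions by construction. With the replicate block the difference was 11.7 points and the exact permutation p 0.5, the smallest that 2 pairs allow; the replicate numbers mark no shared batch in the labels. An overlap of 50% moved none of the 6 values by more than their spread (1.5 times for the count). Of 80 alternative values, 39 kept direction and size, 38 moved further and 3 reversed. The unknown depth limits every absence to the length of the list.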

Other observations

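The early regions without a stage-3 peak were spread over the assembly. They lay on 438 of the 1312 scaffolds with any region, and the scaffold with the most, NW_018370506.1, held 46 of them among 1103 regions and 136 early regions (33.8% of the early regions there). On NW_018378148.1, 12 of 23 early regions (52.2%) had no stage-3 peak. Another region of the same kind lay within 10 kb for 95 of the 1269 (7.49%), against 6.54% of the early regions with both stage-3 peaks and 4.19% of all regions. A region with a peak in both stage-3 lists lay within 10 kb of 262 (20.6%), against 38.9% of the early regions with both stage-3 peaks and 23.1% of all regions.

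Groups of neighbours were small. Joined at gaps of up to 10 kb, the regions formed 39 pairs, 3 groups of 3 and 2 groups of 4. On NW_018375077.1 from 6863 to 20247, none of 4 regions had a peak in a pRNAi list of equal length or a weaker one in wild-type stage 3 replicate 1. In the full lists, both *Pt-hh* pRNAi libraries had a peak in the region that starts at 6863. The full list of *fuchi* pRNAi replicate 2 had one in the region at 8388. On NW_018378148.1 from 573998 to 588893, both *fuchi* pRNAi lists of equal length had a peak in 2 of 4 regions and neither *Pt-hh* pRNAi list of that length had any. In the full lists, *Pt-hh* pRNAi replicate 1 had a peak in the regions that start at 581910, 585315 and 587720. The region at 585315 also had a peak in the full lists of *Pt-hh* and *fuchi* pRNAi replicate 2. On NW_018379239.1 from 604736 to 617820, *fuchi* pRNAi lists of equal length had peaks in 3 and 2 of 3 regions and *Pt-hh* pRNAi lists of equal length in 1 and 2. A weaker wild-type stage-3 peak was found in 2. These groups were named for their size after their values were seen.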
